A study of Mus musculus with 18 samples.

Results

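A set of 9 genes that receive or relay the hormonal signals controlling fat breakdown were followed in inguinal white adipose tissue, a subcutaneous fat depot, of male C57BL/6J mice. They were taken by gene symbol and are Adrb1, Adrb3, Npr1, Npr3, Prkaca, Prkar2b, Pde3b, Hcar1 and Adora1 of the 21899 genes in the count tables. The labels name no engineered allele. The mice had been injected subcutaneously with cells of the Lewis lung carcinoma (LLC), a tumour line that grows in this mouse strain, or with phosphate-buffered saline (PBS) as controls. Fat was collected at day 7, which the labels call pre-cachexia, or at day 21, called cachexia, the wasting that accompanies some tumours. There were 4 PBS and 5 LLC libraries on each of the 2 days, 18 in all. The labels number the samples and do not say whether each came from a separate mouse, so the spread behind each p-value may be in part technical. Ages were not given in the labels.

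In a fat cell, catecholamines bind beta-adrenergic receptors, which act through a stimulatory G protein and adenylyl cyclase to raise cAMP. cAMP releases the catalytic subunits of protein kinase A from their regulatory subunits, and the kinase then phosphorylates perilipin and hormone-sensitive lipase, so that triglyceride is broken down. Insulin opposes this through the phosphodiesterase PDE3B, which degrades cAMP. Lactate (through HCAR1) and adenosine (through the A1 receptor) oppose it through an inhibitory G protein. Natriuretic peptides form a parallel branch, in which NPR1 makes cGMP and NPR3 clears the peptides from the tissue.

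In GENCODE annotation of GRCm38 the receptors lie at chr19:56722199-56733113 (Adrb1, plus strand), chr8:27225776-27250616 (Adrb3, minus), chr3:90450591-90465866 (Npr1, minus), chr15:11839896-11907287 (Npr3, minus), chr5:123876736-123880020 (Hcar1, minus) and chr1:134199223-134235431 (Adora1, minus). The kinase subunits lie at chr8:83972993-83996443 (Prkaca, plus) and chr12:31958476-32061296 (Prkar2b, minus), and Pde3b at chr7:114415281-114539251 (plus). Hcar1 has 1 exon and the others have 2 (Adora1) to 22 (Npr1) merged exons.

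All 9 genes were detected in every library and passed the filter on low counts in each comparison. Library totals ran from 14566155 to 18969387 counts. Of the 17 mature adipocyte markers none was at 0 in any group, but the same was so for 12 skeletal muscle markers, so this alone does not check the tissue label. The summed level of the adipocyte markers was at least 38700 CPM (counts scaled to library size) in every library. Day 21 PBS library 4 stood apart from the other day 21 PBS libraries in marker scores, the mean log2 level of a marker list relative to its mean over the 18 libraries. Its macrophage score was 0.78, against -2.19 to -1.70 in the other 3, and its progenitor and fibroblast score was 0.49, against -1.61 to -1.21. Those 3 had the lowest scores of the series in both lists. Library 4 lay nearer the day 7 PBS libraries (0.18 to 0.74 and 0.69 to 1.06). Day 21 LLC library 3 had a B cell score of 7.79, against at most 1.09 in any other library. Skeletal muscle scores ran from -3.46 to 6.19, with high and low libraries in every group. At day 21 all 12 muscle markers were lower in LLC fat (median log2 fold change -1.51), with 0 at an unadjusted edgeR p under 0.05. Libraries were deposited in 1 table per day, so day and table cannot be told apart. In bulk tissue, fewer cells of a type and less RNA per cell cannot be told apart either.

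The promoters of 3 of the genes are shown because the results below turn on them: Adrb1 and Npr3 had the largest differences at day 21, and Prkaca had the smallest p-value. Each is the 300-base RefSeq window from 250 bases before to 50 bases after a transcription start, 5′ to 3′ on the gene's strand, build GRCm38.p6. Capitals mark TGACG, the left part of the cAMP response element, or its reverse complement CGTCA. Adrb1 is read from chr19:56721867-56722166 on the plus strand, Npr3 from chr15:11907322-11907621 on the minus strand and Prkaca from chr8:83972728-83973027 on the plus strand.
Adrb1: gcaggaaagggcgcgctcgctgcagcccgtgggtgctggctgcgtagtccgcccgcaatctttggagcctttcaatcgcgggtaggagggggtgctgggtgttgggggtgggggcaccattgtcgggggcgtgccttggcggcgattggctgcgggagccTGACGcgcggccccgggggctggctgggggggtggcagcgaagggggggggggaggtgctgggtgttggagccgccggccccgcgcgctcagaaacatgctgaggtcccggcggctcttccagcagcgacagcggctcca
Npr3: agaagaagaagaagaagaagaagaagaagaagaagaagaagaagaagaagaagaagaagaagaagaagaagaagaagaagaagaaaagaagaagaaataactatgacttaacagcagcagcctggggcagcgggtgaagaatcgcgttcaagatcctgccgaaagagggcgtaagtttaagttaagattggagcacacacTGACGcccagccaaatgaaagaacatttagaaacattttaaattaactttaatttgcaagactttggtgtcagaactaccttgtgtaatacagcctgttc
Prkaca: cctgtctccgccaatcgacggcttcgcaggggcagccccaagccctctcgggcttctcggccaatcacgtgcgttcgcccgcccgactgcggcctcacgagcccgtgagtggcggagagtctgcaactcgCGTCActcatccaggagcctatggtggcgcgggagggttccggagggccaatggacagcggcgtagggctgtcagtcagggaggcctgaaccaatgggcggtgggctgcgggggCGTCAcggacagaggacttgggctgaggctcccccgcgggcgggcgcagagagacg

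The RefSeq table held 10 such windows for 7 of the 9 genes, with more than 1 start for Prkaca, Prkar2b and Adora1, and it held no entry for Adrb3 and Pde3b. TGACG in either direction was in 1 window each of Adrb1, Npr3 and Prkaca, and in none of the windows of Npr1, Prkar2b, Hcar1 and Adora1. Over all promoters in the table, 6837 of 32851 (20.81%) held it. The full palindromic element TGACGTCA, which contains TGACG, was in no window of these genes and in 588 promoters (1.79%). These matches describe letters in a window and are not evidence of a bound site.

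Levels of different genes were compared in TPM, which corrects for transcript length and library size, first in day 7 PBS fat. Prkar2b, the regulatory subunit of protein kinase A typical of fat and brain, was the highest at 338 ± 15.2 TPM (SD, n = 4). It was followed by Adrb3, the beta receptor typical of rodent fat cells (223 ± 78.3 TPM), Prkaca, the main catalytic subunit (155 ± 5.5 TPM), and Pde3b (124 ± 14.3 TPM). Npr3 (104 ± 42.5 TPM), Hcar1 (76.6 ± 10.3 TPM), Npr1 (46.3 ± 6.03 TPM) and Adora1 (44.7 ± 2.91 TPM) came next. Adrb1, the beta receptor best known from heart, was the lowest at 3.02 ± 0.373 TPM. Neighbours in this order whose libraries overlapped were Adrb3 and Prkaca, Pde3b and Npr3, Npr3 and Hcar1, and Npr1 and Adora1. In day 21 LLC fat the order began with Prkar2b (260 ± 108 TPM) and Adrb3 (246 ± 169 TPM), whose libraries now overlapped, and Npr3 (35.3 ± 24.5 TPM) stood below Hcar1, Npr1 and Adora1. Precision differed between genes: Adrb1 rested on 10 to 438 counts a library, and each of the others on at least 412.

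At day 21, 8 of the 9 genes were lower in LLC than in PBS fat and Npr1 was higher. The median log2 fold change of the 9 was -0.87, against 0.02 over all genes tested. None passed an adjusted p of 0.05 in edgeR's quasi-likelihood test with Benjamini-Hochberg adjustment, in which 0.0885% of 13564 genes passed. At an unadjusted p under 0.05 there were 7 (Npr1 higher; Adrb1, Npr3, Prkaca, Prkar2b, Hcar1 and Adora1 lower), against 23.3% of all genes. DESeq2 called 5 lower (Adrb1, Npr3, Prkaca, Prkar2b and Adora1), against 11.4% of all genes. Prkaca was the 1 gene of the 9 whose LLC and PBS libraries did not overlap, as was so for 9.70% of all genes.

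The number of calls at day 21 differed with the libraries fitted. In 1 fit of all 18 libraries the same day 21 contrast called 7 of the 9 (Npr1 higher, the others lower, with Adrb3 and Pde3b not called), where 19.0% of all genes passed. Without day 21 PBS library 4 it called 2, Adrb1 (log2 fold change -2.72 ± 0.65 SE, adjusted p = 0.0355) and Prkaca (-1.0 ± 0.16, adjusted p = 0.0105), where 9.30% of all genes passed. Without day 21 LLC library 2 it called Prkaca alone (adjusted p = 0.0495), where 0.709% of all genes passed. In the authors' deposited table for day 21, 3 of the 9 had an FDR under 0.05: Prkaca (0.00327), Adrb1 (0.00993) and Prkar2b (0.0343). Of all 21899 genes in the authors' deposited table, 5.29% had one.

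**Figure D1:**
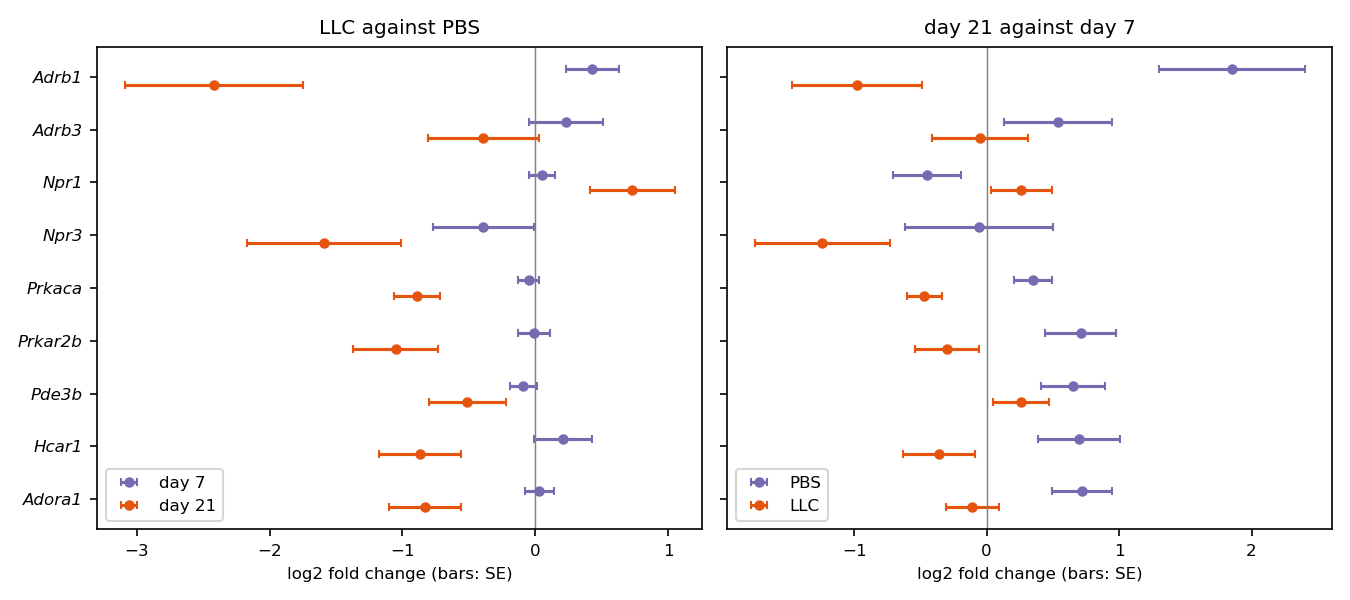
Log2 fold changes of the 9 genes from edgeR, with bars of 1 SE. The left panel sets LLC against PBS at day 7 and day 21, and the right panel sets day 21 against day 7 in PBS and in LLC fat. At day 21 the values run from -2.42 (Adrb1) to 0.73 (Npr1), and at day 7 from -0.39 (Npr3) to 0.43 (Adrb1).

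The cell makeup read from markers moved with the day 21 comparison. Of 17 mature adipocyte markers 15 were lower in LLC fat, with a median log2 fold change of -0.39. Their summed level was 63700 to 86400 CPM (counts scaled to library size) in PBS and 38700 to 90300 CPM in LLC libraries. All 16 macrophage markers were higher (median 0.93, summed 277 to 2070 CPM in PBS and 909 to 2760 CPM in LLC), as were all 7 mast cell markers tested (median 4.12, 18.8 to 37.1 CPM and 79.1 to 155 CPM). All 11 brown and beige adipocyte markers were lower (median -1.07, 194 to 398 CPM in PBS and 47.7 to 242 CPM in LLC), and so were all 9 Schwann and nerve markers (median -0.79, 945 to 1750 CPM and 444 to 900 CPM). All 5 red cell markers were higher (median 2.51, 354 to 861 CPM and 1270 to 4450 CPM). Summed levels did not overlap between PBS and LLC libraries for the mast cell, Schwann and nerve, and red cell lists. Of 14 endothelial markers 11 were higher (median 0.17, 1150 to 1640 CPM and 1510 to 2010 CPM). The lists differed in strength. An unadjusted edgeR p under 0.05 was reached by 1 macrophage, 6 mast cell, 6 adipocyte and 6 brown and beige markers. It was reached by 5 Schwann and nerve, 5 red cell and 6 endothelial markers, against 23.3% of all genes. After adjustment edgeR called 4 mast cell markers and 1 red cell marker of these lists, against 0.0885% of all genes. No marker of these lists was at 0 in either group. Their part in the differences of the 9 genes was not tested.

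Prkaca encodes the catalytic subunit that carries the kinase activity. Its day 21 levels were 249, 242, 253 and 175 CPM in PBS libraries 1 to 4, and 119.5, 162, 94.2, 130 and 125 CPM in LLC libraries 1 to 5. The lowest PBS library, library 4, stood above the highest LLC library. Its log2 fold change came to -0.89 ± 0.17 SE (adjusted p = 0.0634), the 90th smallest p of 13564 genes. At day 7 the PBS libraries lay at 167 to 190 CPM and the LLC libraries at 158 to 193 CPM, so the groups overlapped and neither reached the 3 high PBS libraries of day 21. Between the days it was higher in PBS (log2 fold change 0.35 ± 0.14, adjusted p = 0.178) and lower in LLC fat (-0.47 ± 0.13, adjusted p = 0.0697).

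Prkar2b, whose product holds the catalytic subunits inactive until cAMP binds, was measured at 836, 928, 1252 and 714 CPM in day 21 PBS libraries and at 357, 608, 325, 266 and 737 CPM in LLC libraries. The groups overlapped only through LLC library 5, which stood above PBS library 4. LLC against PBS gave a log2 fold change of -1.05 ± 0.32 (adjusted p = 0.113). As a share of the TPM of the 4 regulatory subunits, Prkar2b made up 70.7 to 82.1% in day 21 PBS and 47.8 to 71.2% in day 21 LLC libraries, against 62.7 to 71.2% over the 2 groups of day 7. Prkaca made up 77.3 to 85.9% of the 2 catalytic subunits in day 21 PBS and 66.0 to 79.6% in LLC libraries. Its partner Prkacb lay at 85.0 ± 9.98 CPM in PBS (n = 4) and 85.4 ± 14.1 CPM in LLC fat (n = 5) on that day.

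Adrb1 had the largest difference of the 9. Day 21 PBS libraries 1 to 4 held 26.4, 26.1, 8.22 and 5.41 CPM, and LLC libraries 1 to 5 held 3.05, 3.28, 1.74, 0.633 and 6.94 CPM. PBS libraries 1 and 2 were far above all others of the series, and LLC library 5 lay above PBS library 4, so the groups overlapped. PBS libraries 1 and 2 also had skeletal muscle scores of 5.81 and 4.17, against -2.48 and -2.84 in PBS libraries 3 and 4. Day 7 PBS library 3 had the highest muscle score (6.19) and 5.30 CPM of Adrb1. What set these libraries apart was not tested. The log2 fold change was -2.42 ± 0.67 (adjusted p = 0.0986). At day 7 the groups spanned 3.71 to 5.30 CPM in PBS and 3.87 to 7.24 CPM in LLC fat, and the log2 fold change was 0.43 ± 0.20 (adjusted p = 0.614).

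Adrb3 was measured at 422, 436.5, 362 and 256 CPM in day 21 PBS libraries and at 146, 144, 471, 188 and 483 CPM in LLC libraries. The LLC libraries split, with 2 above every PBS library and 3 below every one. For Adrb3 the log2 fold change was -0.39 ± 0.42 (adjusted p = 0.585), and it ran from -0.63 without LLC library 5 to -0.18 without LLC library 1. In day 7 fat Adrb3 spanned 143 to 310 CPM in PBS and 152 to 412 CPM in LLC libraries (log2 fold change 0.23 ± 0.28, adjusted p = 0.872).

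Among the natriuretic peptide receptors, the guanylyl cyclase Npr1 was higher in day 21 LLC fat and the clearance receptor Npr3 was lower. Npr1 levels were 57.1, 50.6, 66.9 and 96.2 CPM in PBS libraries and 68.5, 82.0, 128, 195 and 97.1 CPM in LLC libraries. PBS library 4 lay within the LLC range and the other 3 below all LLC libraries. For Npr1 the log2 fold change was 0.73 ± 0.32 (adjusted p = 0.203). Leaving out single libraries moved it between 0.46 (adjusted p = 0.283), without LLC library 4, and 0.95 (adjusted p = 0.0985), without PBS library 4.

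Npr3 levels at day 21 were 454, 247, 366 and 131 CPM in PBS libraries and 128, 40.5, 113, 26.1 and 195 CPM in LLC libraries. LLC libraries 2 and 4 were the lowest of the series, and PBS library 4 lay below LLC library 5, so the groups overlapped. This gave a log2 fold change of -1.59 ± 0.58 (adjusted p = 0.148). Npr3 also varied most of the 9 in day 7 PBS fat, with a coefficient of variation of 46.8% against 3.65% for Adora1.

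The TPM ratio of Npr1 to Npr3 joined the 2 differences. It was 0.181, 0.301, 0.273 and 1.09 in day 21 PBS libraries and 0.730, 2.81, 1.71, 10.2 and 0.716 in LLC libraries. Only PBS library 4 overlapped the LLC range. The difference was 2.42 on the log2 scale (exact two-sided permutation p = 0.0476, 0.19 adjusted over 12 ratio comparisons). Day 21 LLC against day 7 LLC differed by 1.61 (exact permutation p = 0.0476, adjusted 0.19). The ratio of Adrb1 to Adrb3 at day 21 differed by -1.90 (exact permutation p = 0.0635, adjusted 0.19) and that of Prkar2b to Prkaca by -0.22 (exact permutation p = 0.492, adjusted 0.686). None of the 12 comparisons passed after adjustment. The smallest p this test allows is 0.0159 for 4 against 5 libraries and 0.00794 for LLC fat between the days. A single ratio at either value could not pass 0.05 after adjustment over 12, however large its difference. That none passed therefore says little about the ratios.

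**Figure D2:**
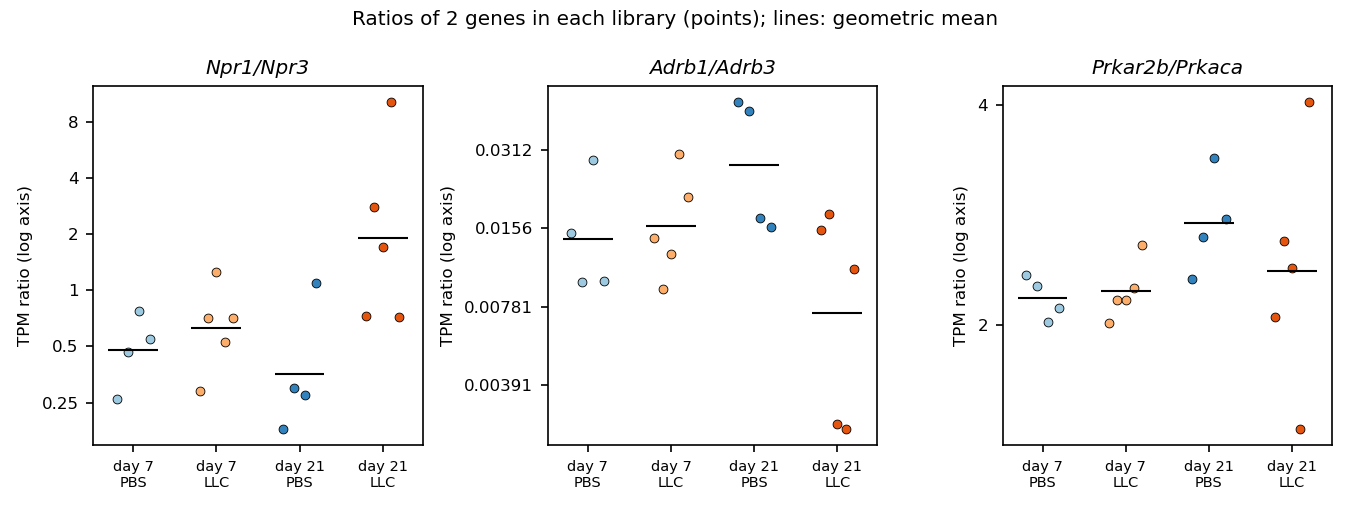
TPM ratios of Npr1 to Npr3, Adrb1 to Adrb3 and Prkar2b to Prkaca on log axes, 1 point per library and a line at the geometric mean of each group. The Npr1 to Npr3 ratio was 0.181 to 1.09 in day 21 PBS and 0.716 to 10.2 in day 21 LLC libraries.

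Pde3b, the phosphodiesterase through which insulin lowers cAMP, was measured at 660, 701, 722 and 520 CPM in day 21 PBS and at 254, 500.1, 313, 517 and 742 CPM in LLC libraries. LLC library 5 was the highest of all 9 and the other 4 LLC libraries lay below every PBS library. LLC against PBS gave a log2 fold change of -0.51 ± 0.29 (adjusted p = 0.316), and -0.31 (adjusted p = 0.478) without LLC library 1. Pde3b made up at least 97.05% of the TPM of Pde3a and Pde3b in every library.

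Hcar1, the lactate receptor, was measured at 219, 254, 193 and 167 CPM in day 21 PBS and at 85.5, 94.9, 129, 62.3 and 205 CPM in LLC libraries. LLC library 5 again lay within the PBS range and the other 4 below it. The log2 fold change was -0.87 ± 0.31 (adjusted p = 0.146). Adora1, the A1 adenosine receptor, was measured at 182, 219, 179 and 124 CPM in PBS and at 117, 151, 61.9, 70.8 and 102 CPM in LLC libraries. LLC library 2 lay above PBS library 4, and no other LLC library reached the PBS range. The log2 fold change was -0.83 ± 0.27 (adjusted p = 0.124). Exons of Adora1 share 1162 bases with the opposite-strand muscle gene Mybph, which had 3 to 248 counts a library, against at least 1118 for Adora1. The library kit is not stated to mark strand, so reads there cannot be assigned between them. Exons of Adrb3, Npr1 and Npr3 share 839, 559 and 321 bases with opposite-strand noncoding genes not in the count tables.

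**Figure D3:**
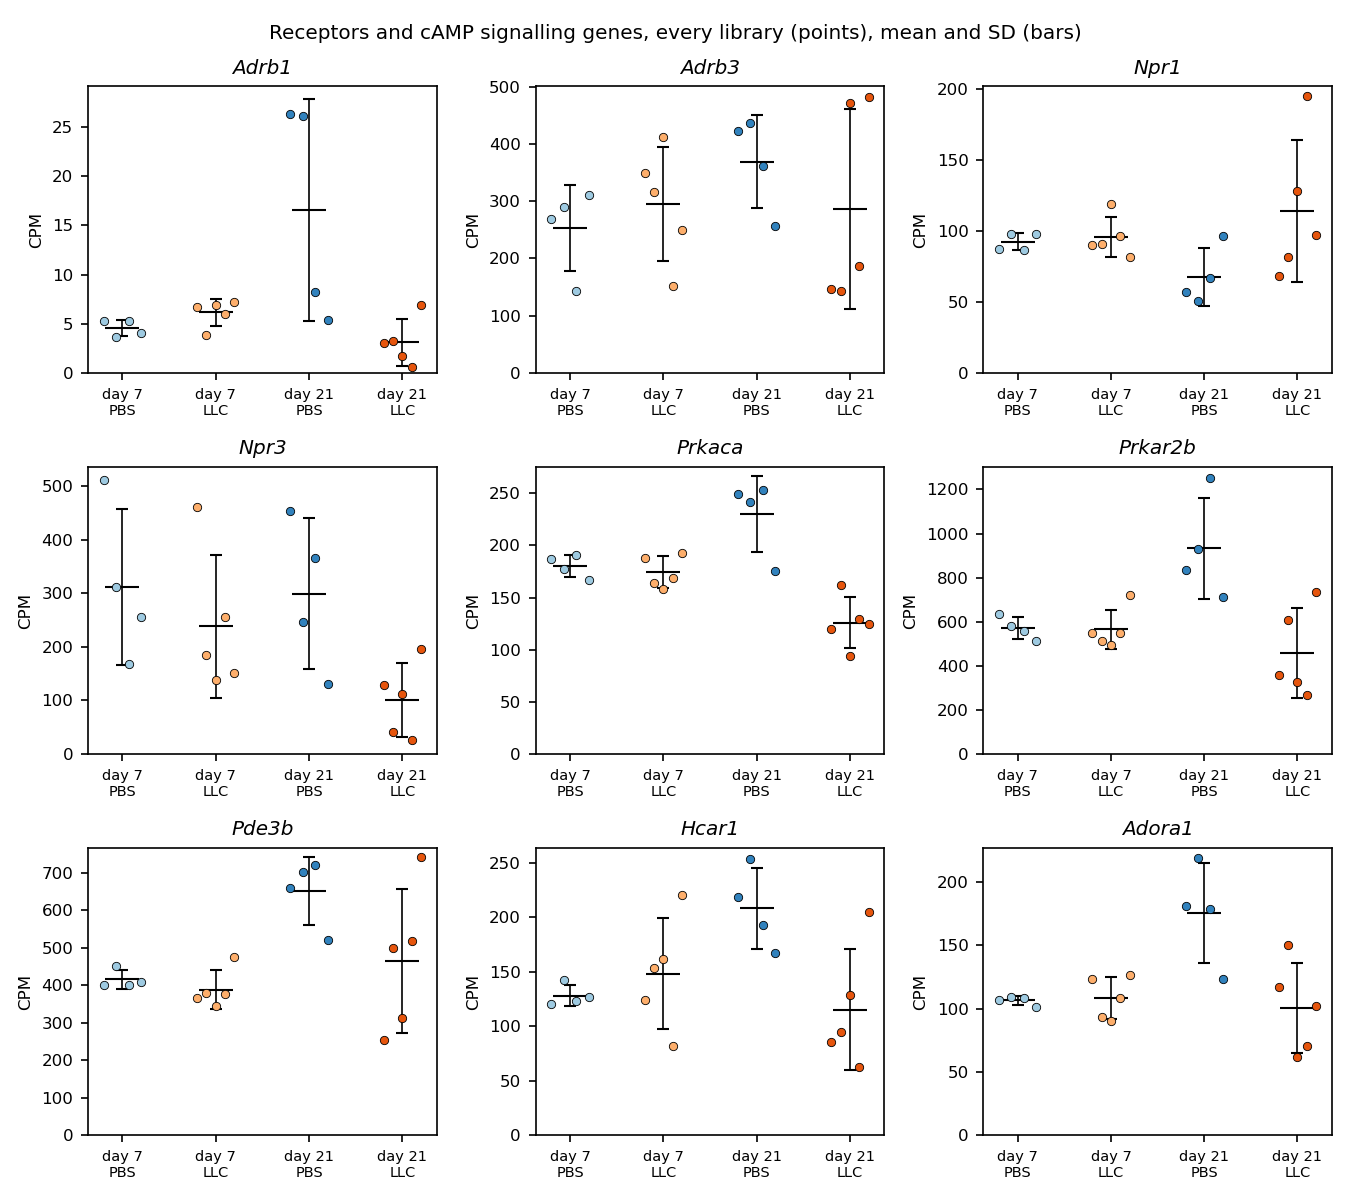
CPM of each gene in every library (points), with the mean and SD of each group of 4 PBS or 5 LLC libraries (bars). At day 21 Prkaca lies at 175 to 253 CPM in PBS and 94.2 to 162 CPM in LLC fat, the 1 panel in which these groups do not overlap.

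At day 7 none of the 9 genes was called between LLC and PBS fat. Their median log2 fold change was 0.03, against 0.00 over all genes, and values ran from -0.39 ± 0.38 (Npr3, adjusted p = 0.836) to 0.43 (Adrb1). None passed in edgeR (0.00744% of 13445 genes passed), none had an unadjusted p under 0.05 (8.51%), none passed in DESeq2 (0.692%), and the groups overlapped for all 9 (2.52% of genes did not overlap). In the authors' deposited table for day 7, Adrb1 alone of the 9 had an unadjusted p under 0.05 (0.0252, FDR 0.695). None of the 9 had an FDR under 0.05 there, against 0.210% of all genes. Standard errors at day 7 were 0.08 (Prkaca) to 0.38 (Npr3), against 0.17 (Prkaca) to 0.67 (Adrb1) at day 21.

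Whether the tumour effect differed between the days was tested as an interaction over all 18 libraries. No gene of the 9 passed (0.415% of 13975 genes did), 5 had an unadjusted p under 0.05 (Adrb1, Prkaca, Prkar2b, Hcar1 and Adora1, against 18.2% of genes), and DESeq2 called 2, Adrb1 and Prkaca (5.20% of genes). The interaction was -2.83 ± 0.74 for Adrb1 (adjusted p = 0.0825) and -0.82 ± 0.19 for Prkaca (adjusted p = 0.0641). Both passed without day 21 PBS library 4 (adjusted p = 0.0106 and 0.0041), Prkaca passed without LLC library 2 of that day (0.0224) and Adrb1 without LLC library 5 (0.0428). In those 3 fits 8.64%, 2.65% and 0.753% of all genes passed.

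The groups that had received PBS differed between the days as well. In day 21 against day 7 PBS fat, 7 of the 9 genes were higher, with a median log2 fold change of 0.65 against 0.01 over all genes. None passed in edgeR (3.21% of 13975 genes did), 6 had an unadjusted p under 0.05, all higher (20.4% of genes), and DESeq2 called Adrb1 and Adora1 higher (7.94%). The libraries of the 2 days did not overlap for 5 genes, Adrb1, Prkar2b, Pde3b, Hcar1 and Adora1 (16.3% of genes). Adora1 lay at 101 to 109.5 CPM at day 7 and at 124 to 219 CPM at day 21 (log2 fold change 0.72 ± 0.23, adjusted p = 0.089), and Pde3b at 400.3 to 452 CPM and 520 to 722 CPM (0.65 ± 0.24, adjusted p = 0.14). Without day 21 PBS library 4 edgeR called Adrb1, Prkaca and Adora1 (adjusted p = 0.0138, 0.0369 and 0.0214), where 12.0% of all genes passed. Leaving out LLC libraries of day 21, which share the estimate of spread, called Adora1 (without library 3, 0.0447) or Adrb1 (without library 4, 0.043). In those fits 4.75% and 4.06% of all genes passed. A fit of only the 2 PBS groups called Prkar2b, Pde3b, Hcar1 and Adora1 higher, where 6.01% of all genes passed.

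Cell type markers moved with this comparison too. In day 21 PBS fat 15 of 17 adipocyte markers were higher (median log2 fold change 0.46), and their sum did not overlap between the days (48600 to 60200 CPM at day 7, 63700 to 86400 CPM at day 21). All 16 progenitor and fibroblast markers were lower (median -1.29, 17700 to 26300 CPM and 3220 to 19500 CPM), as were 15 of 16 macrophage markers (median -0.99, 1530 to 2360 CPM and 277 to 2070 CPM) and all 9 mast cell markers (median -3.20, 50.8 to 87.2 CPM and 18.8 to 37.1 CPM). All 11 brown and beige adipocyte markers were higher (median 1.39, 76.1 to 155 CPM and 194 to 398 CPM). The sums of the mast cell list and of the brown and beige list did not overlap between the days either. An unadjusted edgeR p under 0.05 was reached by 6 adipocyte, 10 progenitor and fibroblast and 5 macrophage markers. It was reached by 6 mast cell and 6 brown and beige markers, against 20.4% of all genes. None of these markers was at 0 in either group, and their part in the differences was not tested.

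In LLC fat, day 21 against day 7, 7 of the 9 genes were lower (median -0.30, against 0.05 over all genes). None passed in edgeR (1.77% of genes did), and 2 had an unadjusted p under 0.05, Npr3 and Prkaca (18.6%). DESeq2 called Prkaca lower (5.81%), and the groups overlapped for all 9 (3.33% of genes did not overlap). Npr3 had the largest difference, -1.24 ± 0.51 (adjusted p = 0.197). Prkaca passed in edgeR without PBS library 4 (adjusted p = 0.042) or LLC library 2 of day 21 (0.0177), where 2.40% and 4.32% of all genes passed. Beside this, 10 of 11 brown and beige adipocyte markers were lower at day 21 (median -1.05, summed 198 to 488 CPM at day 7 and 47.7 to 242 CPM at day 21). Of 16 progenitor and fibroblast markers 15 were lower (median -0.60, 7690 to 22100 CPM and 3860 to 17600 CPM), as were all 9 Schwann and nerve markers (median -0.57, 515 to 1240 CPM and 444 to 900 CPM). All 9 mast cell markers were higher (median 0.66, 60.7 to 110 CPM and 79.1 to 155 CPM), as were all 5 red cell markers (median 0.83, 1220 to 3140 CPM and 1270 to 4450 CPM). An unadjusted edgeR p under 0.05 was reached by 7 brown and beige, 5 progenitor and fibroblast and 5 Schwann and nerve markers. It was reached by 3 mast cell and 5 red cell markers, against 18.6% of all genes. None of these markers was at 0 in either group, and their part was not tested. The comparisons above share groups of libraries, so the day 21 difference of a gene such as Adora1 (-0.83) stands beside 0.72 in PBS and -0.11 ± 0.20 in LLC fat between the days, and that of Npr3 (-1.59) beside -0.06 ± 0.56 and -1.24.

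Across the 18 libraries the genes did not vary as 1 block. Pearson correlations of log2 CPM, given as descriptions over libraries that share the 4 groups and their scaling, were 0.82 between Prkaca and Adora1, 0.82 between Prkar2b and Adora1, and 0.81 between Prkaca and Prkar2b. Npr1 ran against Adora1 (-0.89) and Adrb1 (-0.82), and within groups these were -0.83 and -0.76. For Npr1 and Adora1 r was -0.68 over the 9 libraries of day 7 and -0.90 over those of day 21, while for Npr1 and Adrb1 it was 0 at day 7 and -0.88 at day 21. Adrb3 followed Hcar1 (0.71) and was near 0 with Adora1 (0.06). Pde3b tracked the mature adipocyte score at 0.92, followed by Prkar2b (0.78), Prkaca (0.76), Adora1 (0.66) and Hcar1 (0.59). Adrb1 (0.57), Adrb3 (0.36) and Npr3 (0.29) came next, with Npr1 at -0.41. Within groups Pde3b stayed at 0.92, with Prkaca at 0.72 and Prkar2b at 0.62. Adora1 (0.37), Hcar1 (0.35), Adrb1 (0.27), Adrb3 (0.21), Npr3 (0.03) and Npr1 (-0.03) were weaker there. Over the 18 libraries the mast cell score gave values larger in size for every gene but Pde3b (-0.59). Those of Prkaca, Prkar2b, Adora1 and Adrb1 were -0.83, -0.82, -0.8 and -0.79, and within groups -0.52, -0.54, -0.57 and -0.61.

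**Figure D4:**
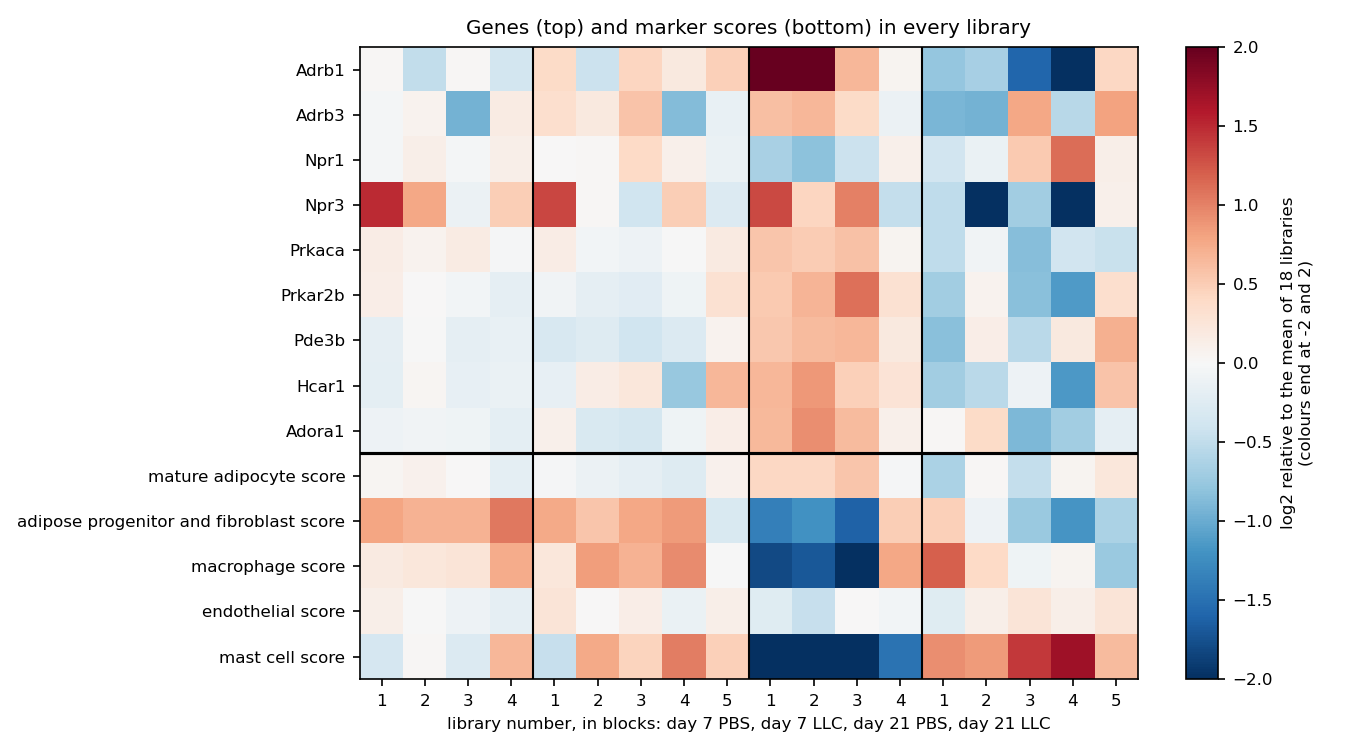
Log2 CPM of the 9 genes (top) and 5 marker scores (bottom) relative to the mean of the 18 libraries, with colours ending at -2 and 2. Columns are libraries in blocks for day 7 PBS, day 7 LLC, day 21 PBS and day 21 LLC. Day 21 PBS library 4 differs from the other 3 of its block in its macrophage score (0.78) and progenitor score (0.49).

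Among 13075 genes with a mean of at least 1 CPM, the 2 most like each gene by Pearson correlation over the 18 libraries were as follows. For Hcar1 the first was Hcar2 (r = 0.88), its paralog and the niacin receptor, followed by Fgf10 (0.88). Whether any reads were shared between the paralogs was not tested. For Pde3b they were Nudt12 and Acsm5 (both 0.94), for Prkaca Ywhag (0.97) and Letm1 (0.96), and for Prkar2b Vps26b (0.97) and Negr1 (0.96). For Adrb1 they were Mogat1 (0.93) and Atp9a (0.92), for Adrb3 Poli (0.86) and Bbs10 (0.79), and for Adora1 Slc48a1 (0.94) and Eif4g1 (0.93). For Npr1 they were Ugdh (0.92) and Mtmr11 (0.91), and for Npr3 Prr32 and Grb14 (both 0.92).

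The rest of the pathway was followed in 10 lists with 139 genes, of which 124 were tested at day 21. None passed in edgeR on that day; 32 had an unadjusted p under 0.05 (12 higher and 20 lower), against 23.3% of all genes. DESeq2 called 7 higher and 13 lower, against 11.4%. Their median log2 fold change was 0.03. The lipolysis effectors, which are lipases, their regulators, droplet proteins, a fatty acid carrier and a glycerol channel, had 9 of 10 lower (median -0.47). Pnpla2, Lipe, Plin1, Cidec and Fabp4 of this list are also among the mature adipocyte markers, and Cidea among the brown and beige ones. The 2 with the smallest p were Plin1, the perilipin that coats the droplet (-0.96 ± 0.21, adjusted p = 0.0729), and Mgll, monoglyceride lipase (-0.83 ± 0.22, adjusted p = 0.0915).

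Values for other steps at day 21 were in both directions, and none of the following passed. Among inhibitory receptors, of which 3 were higher and 5 lower, Adra2a, the alpha-2A adrenergic receptor, stood at 1.99 ± 0.53 (adjusted p = 0.0907) and Ptger3, a prostaglandin E2 receptor, at -1.33 ± 0.39 (0.106). Among stimulatory receptors, 8 higher and 4 lower, Adora2b, an adenosine receptor, stood at 1.76 ± 0.75 (0.199). Among adenylyl cyclases, 4 higher and 5 lower, Adcy6 stood at -0.61 ± 0.15 (0.0759) and Adcy4 at 0.81 ± 0.20 (0.0801). Of the G proteins and desensitising proteins 9 were higher and 9 lower, with Arrb1, a beta-arrestin, at 0.64 ± 0.19 and Gnao1 at -0.97 ± 0.29 (both 0.112).

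Of the other kinase A subunits, inhibitors and anchors 10 were higher and 5 lower, with Akap7 at -0.52 ± 0.20 (adjusted p = 0.167) and Opa1 at -0.39 ± 0.17 (0.205). Of the other phosphodiesterases and PDE3B partners 11 were higher and 8 lower, with Pde9a, a cGMP phosphodiesterase, at 1.22 ± 0.29 (0.0779) and Abhd15, a PDE3B partner, at -0.64 ± 0.21 (0.12). In the natriuretic peptide and cGMP branch 5 were higher and 2 lower, with Nos3, endothelial nitric oxide synthase, at -0.67 ± 0.16 (0.078) and Npr2, the receptor of C-type natriuretic peptide, at -0.59 ± 0.19 (0.117). Of the cAMP-responsive transcription genes 13 were higher and 8 lower, with Creb1 at 0.42 ± 0.14 (0.121) and Nr4a2 at -0.51 ± 0.18 (0.138). For catecholamine uptake and breakdown 1 was higher and 4 lower, with Slc18a2, a vesicular monoamine transporter, at 0.81 ± 0.33 (0.186).

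Elsewhere 10 pathway results passed in edgeR. At day 7 it was 1 gene of 125, Ucp1, the uncoupling protein of thermogenic fat, which was higher in LLC fat (12.2 to 42.0 CPM) than in PBS fat (0.0585 to 0.986 CPM), with a log2 fold change of 5.28 ± 0.51 (adjusted p = 0.00802). The call was lost when day 7 PBS library 1, 2 or 3 was left out (adjusted p = 0.0988, 0.0933 and 0.053), and in 1 of 11 other alternatives, the fit of all 18 libraries (adjusted p = 1). Beside it, 10 of 11 brown and beige adipocyte markers, of which Ucp1 is 1, were higher at day 7 (median 1.14). In LLC fat between the days Grk5, a receptor kinase, fell (log2 fold change -0.71 ± 0.13, adjusted p = 0.02), and the call was lost without day 7 LLC library 1 (0.0599). It was also lost in 4 of 11 other alternatives: library totals (0.0609), limma at the larger and smaller pseudocount (0.102 and 0.101) and a fit of only the 2 groups (0.125). No other pathway gene of 127 passed there, and none of 127 passed in the interaction, with 29 (12 higher and 17 lower) at an unadjusted p under 0.05 (against 18.2% of all genes) and 12 by DESeq2 (against 5.20%).

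In PBS fat between the days 8 of 127 pathway genes passed, against 3.21% of all genes. Those lower at day 21 were Adra2a (-1.75 ± 0.44, adjusted p = 0.0414), the cyclase Adcy2 (-1.72 ± 0.39, 0.0277), the kinase A anchor Akap12 (-0.86 ± 0.22, 0.0426), the phosphodiesterases Pde10a (-0.99 ± 0.24, 0.0334) and Pde3a (-0.84 ± 0.22, 0.0481), and the CREB coactivator Crtc3 (-0.48 ± 0.11, 0.0322). Slc6a2, the noradrenaline transporter, was lower too, at 0.717 to 1.37 CPM at day 7 and at most 0.184 CPM at day 21 (adjusted p = 0.0363), with too few counts at day 21 for a fold. Pde4c was higher (1.01 ± 0.26, 0.0439). Each of the 8 lost its call when some single libraries were left out, Adcy2 in 5 and Pde3a in 14 of 18 such fits, with adjusted p up to 0.117 and 0.164. Under the other alternatives Pde4c lost it in 6 of 11, Adra2a and Pde3a in 5, Crtc3 in 4, Akap12 and Pde10a in 2, Slc6a2 in 1 of 10 and Adcy2 in 0 of 11. The markers given above for this comparison moved with these genes as well, and their part was not tested.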

How the data were processed

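The authors' deposited tables hold, per day and library, expected counts (taken as RSEM output rounded to whole numbers), TPM (the authors' length-corrected levels), and the authors' log2 ratio, p-value and FDR of LLC against PBS. Per the submitters' processing notes, reads were handled with fastp 0.23.0 and RSEM on mm10 (GRCm38). Which aligner, annotation and comparison tool were used is not given in the sources used here. Both the 9 genes and the lists were chosen with earlier results of these data known.

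Under R 4.3.3, edgeR 4.0.16 was run on the counts (TMM, filterByExpr, two-sided quasi-likelihood tests, Benjamini-Hochberg over all genes, threshold 0.05), within each day for LLC against PBS and in 1 fit of 18 libraries with 4 group means for the other contrasts. CPM use TMM factors over all 18 libraries. SE is the log2 fold change over the square root of F. DESeq2 1.42.0, limma 3.58.1 on log2(TPM + 1) and log2(TPM + 0.1), other scalings and filters, a replicate block and leaving out libraries were alternatives. The edgeR steps were tested on simulated data with the same spread for every gene and group. The measured groups differed in spread, so that test does not tell how many true differences were missed here. Genes named were the 9, pathway genes past the threshold, up to 2 of a list with the smallest p where none passed at day 21, and the 2 most correlated genes of each. Some genes under this rule are not reported here.

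Libraries of a group differed beyond sampling noise in all 32 pairs (lowest chi-square per gene 15.2), so none was merged as a duplicate of another. The lowest value was 19.1 in day 7 PBS, 15.2 in day 7 LLC, 20.3 in day 21 PBS and 68.4 in day 21 LLC fat. Fits of all 18 libraries share 1 estimate of spread over these unequal groups. Same-numbered PBS and LLC libraries of day 7 deviated together (correlations 0.13 to 0.53 over 4 pairs), a possible pairing read from the data alone. Genome positions come from GENCODE annotation of GRCm38 and promoters from RefSeq.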

Additional observations from a re-analysis of the deposited data

Results flagged for a closer look

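Of 48 sets of values tested (9 genes and 3 ratios in 4 groups), 6 held a library far from the others of its group. Chance flags about 1 in 20 groups where values are normally spread. The sets were tested without taking logs, whereas the ratios were compared above on the log2 scale. A ratio without logs is skewed, and whether the ratio flags below hold on the log2 scale was not tested. Day 21 PBS library 4 was low in Prkaca (175.4 CPM, the other 3 at 242 to 253 CPM) and high in the TPM ratio of Npr1 to Npr3 (1.092, the other 3 at 0.181 to 0.301). The same library carried the macrophage and progenitor scores that differ from its group. Day 21 LLC library 4 had an Npr1 to Npr3 ratio of 10.2, against at most 2.81 in the other 4. Day 7 LLC library 5 was high in Prkar2b (719.4 CPM, the others at 496 to 550 CPM) and Pde3b (476.5 CPM, the others at 345 to 379 CPM), and day 7 PBS library 2 was high in Pde3b (451.9 CPM, the others at 400.3 to 408 CPM).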

How the results depend on the processing

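The main count of genes past the edgeR threshold was 0 of 9 in every comparison. With DESeq2 it was 5 at day 21, 2 for the interaction, 2 in PBS and 1 in LLC fat between the days. Of all genes 11.4%, 5.20%, 7.94% and 5.81% passed. With day 21 PBS library 4 and LLC libraries 1 and 3 left out together it was 1, 2, 5 and 2, in that order. Of all genes 7.18%, 8.49%, 24.4% and 12.8% passed. At day 21 it was 7 in 1 fit of all 18 libraries (19.0% of all genes). It was 1 (Prkaca) once the muscle score entered the fit as a covariate (0.855%). In PBS fat it was 4 when only the 2 groups were fitted (6.01%). Leaving out single libraries gave 0 to 2 at day 21, 0 to 2 for the interaction, 0 to 3 in PBS and 0 to 1 in LLC fat. Each highest count was reached without day 21 PBS library 4, where 9.30%, 8.64%, 12.0% and 2.40% of all genes passed. At day 7 it was 0 under every alternative run. RLE scaling, library totals, both filters on low counts, the robust fit and limma gave 0 in each comparison.

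With a replicate block the count was 2 for the interaction (Adrb1 and Npr3), 1 in PBS fat (Hcar1) and 0 elsewhere. Of all genes, 0.544% passed there for the interaction and 3.75% in PBS fat. The block changed no call at day 7. At day 21 the same-numbered libraries correlated at -0.28 to 0.30, and 1 of 8 libraries correlated best with its own number (4 of 8 at day 7, 2 of 8 in PBS and 0 of 10 in LLC fat). These values cannot decide whether libraries were paired on either day, and the labels only number the samples.

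Over all genes, the calls at day 21 went from 12 to 1552 with DESeq2, 2660 in 1 fit of all libraries, 1277 without PBS library 4 and 1 with the block. For DESeq2 they went from 1 to 93 at day 7, from 58 to 727 for the interaction, from 449 to 1109 in PBS and from 248 to 812 in LLC fat. Over all alternatives the calls ran from 0 to 93 at day 7, 0 to 2660 at day 21, 6 to 1222 for the interaction, 41 to 3423 in PBS and 2 to 1789 in LLC fat. Scaling by library totals moved the median of all genes at day 21 from 0.02 to 0.22, and 8 of the 9 genes were lower under every alternative at day 21.

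Signs turned only in values near 0 (adjusted p of at least 0.748). At day 7 they were Npr1 (-0.008 and -0.009 with limma at the larger and smaller pseudocount; -0.039 to 0.102 leaving out libraries), Hcar1 (-0.018 with the block), Adora1 (-0.043 with the block; -0.033 to 0.086 leaving out libraries) and Prkar2b (-0.114 to 0.042 leaving out libraries). In PBS fat it was Npr3 (0.2 without the 3 libraries; -0.332 to 0.287 leaving out single ones). In LLC fat they were Adrb3 (0.014 with library totals; -0.318 to 0.123), Adora1 (0.002 without the 3 libraries; -0.301 to 0.016) and Npr1 (-0.025 to 0.383). Of the ratios they were Adrb1 to Adrb3 (-0.071 to 0.497) and Prkar2b to Prkaca (-0.023 to 0.064) at day 7, and Prkar2b to Prkaca in LLC fat (-0.103 to 0.27). The causes were not tested. Depth limits Adrb1 most, at 10 counts in its lowest library.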
